A study of Mus musculus with 8 samples.

Results

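The genes described here are 32 genes of the endoplasmic reticulum (ER): its chaperones and folding enzymes, the sensors of the unfolded protein response, the machinery of ER-associated degradation and the channel through which new proteins enter. They were listed by name and not by a rule on their measured values, but with earlier results of these data known. All 32 were found among the 35498 mouse genes summed from the deposited tables, and all 32 were among the 16309 genes with enough reads to test. The gene with the fewest reads, Sdf2l1, still had 126 in its poorest library. The members comprised 11 chaperones and co-chaperones, 7 lectin chaperones and folding enzymes, 4 sensors or transcription factors, 7 degradation genes and 3 translocation genes.

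The study asked how expression of Mif, a cytokine gene, in the tumour affects the sarcoma cells themselves. Bulk RNA sequencing was run on C57BL/6 mouse sarcoma cells sorted from tumours, in 4 groups of 2 libraries. Every group shared the p53-/- Ccne1+ background, meaning mesenchymal stem cells transformed by p53 loss and Ccne1 overexpression and passed through a first recipient. The sgSCR cells carried Cas9 and a control guide RNA, and the sgMif cells carried Cas9 and a guide against Mif (labelled Mif knockout). The shSCR cells carried a control hairpin RNA, and the shMif cells carried a hairpin against Mif (labelled Mif knockdown). The design text places Cas9 in the hairpin cells too, whereas the growth protocol names it for the guide samples only. Tumours grew under the skin of second recipients on polyurethane scaffolds, were digested, and their cells were sorted on a fluorescent marker that is not named. The sources used here do not give the age and sex of the recipients, the number of clones or the immune status of the hosts. No label states whether both libraries of a group are from different animals, so the p-values rest on a spread between libraries that may be technical. In such bulk samples fewer cells of a type and less RNA per cell cannot be told apart.

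Secreted and membrane proteins fold in the ER, where chaperones hold them in solution, lectins retain sugar-bearing chains and disulfide isomerases pair their cysteines. When unfolded protein accumulates, 3 sensors in the ER membrane respond. IRE1, encoded by Ern1, cuts the Xbp1 messenger so that it encodes an active transcription factor. ATF6 travels to the Golgi and is cleaved to release a transcription factor, and PERK, encoded by Eif2ak3, slows translation and favours that of ATF4. Cells that secrete much collagen, such as fibroblasts and sarcoma cells of mesenchymal origin, carry a heavy folding load.

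The ER stress response element is the best known promoter sequence of this pathway, and it is shown first because several of the members that differed most between groups hold it. It was searched as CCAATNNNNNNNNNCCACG on both strands in RefSeq windows of 300 bases, from 250 before to 50 after each gene's start (GRCm38.p6). It was in 39 of 32851 windows (0.119%) and in 8 of the 26 members that had a window. The other 6, Hspa13, Hyou1, Sec61a1, Atf6, Manf and Sil1, had none in the table. Each match is printed with 5 bases on either side, on the strand that reads from CCAAT to CCACG, with the match in capitals.
Hspa5: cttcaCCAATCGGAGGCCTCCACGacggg
Hsp90b1, farther match: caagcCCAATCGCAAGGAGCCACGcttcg
Hsp90b1, nearer match: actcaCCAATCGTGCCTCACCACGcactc
Canx: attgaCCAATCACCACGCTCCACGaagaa
Calr: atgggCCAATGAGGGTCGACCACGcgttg
Pdia6: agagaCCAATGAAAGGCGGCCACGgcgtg
Dnajc3: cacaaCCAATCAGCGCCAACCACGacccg
Creld2: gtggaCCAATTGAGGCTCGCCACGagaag
Syvn1: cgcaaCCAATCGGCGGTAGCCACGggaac

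These matches lay at chr2:34772020-34772048 (Hspa5), chr10:86705633-86705661 and chr10:86705528-86705556 (Hsp90b1), chr11:50325795-50325823 (Canx), chr8:84847070-84847098 (Calr), chr12:17266486-17266514 (Pdia6), chr14:118937822-118937850 (Dnajc3), chr15:88819515-88819543 (Creld2) and chr19:6046527-6046555 (Syvn1). Counted from the RefSeq gene start, the match nearest to it was that of Syvn1, at bases -44 to -26, and the farthest was that of Hsp90b1, at bases -212 to -194. The nearer Hsp90b1 match and those of Calr and Creld2 ran against the direction of the gene. A shorter variant, named ERSE-II (ATTGG, any base, then CCACG), was in 12 windows (0.0365%), among them those of Herpud1 and Dnajb11. Hsp90b1 was the only member with 2 matches, and its upstream stretch is printed whole to show their spacing and opposite orientation (chr10:86705510-86705694, minus strand, 185 bases upstream of the annotated gene, matches in capitals). A match in these letters is a description of the sequence and not of factor binding.
Hsp90b1: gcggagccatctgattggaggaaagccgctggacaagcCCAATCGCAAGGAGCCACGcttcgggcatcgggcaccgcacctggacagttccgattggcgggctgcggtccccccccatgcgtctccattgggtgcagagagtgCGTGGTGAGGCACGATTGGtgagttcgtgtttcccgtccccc

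The libraries held 19042235 to 51819308 estimated reads each. Mif itself was at 377 and 455 CPM (reads scaled to library size by edgeR) in sgSCR, 221 and 222 in sgMif, 170 and 375 in shSCR, and 277 and 222 in shMif. Its level was lower in both sgMif libraries than in both sgSCR libraries (log2 fold change -0.91 ± 0.32, adjusted p = 0.215). The 2 libraries labelled shMif lay between the 2 shSCR libraries (-0.13 ± 0.32, adjusted p = 0.925), so the transcript level does not show a knockdown, and that comparison is described by label only. By a chi-square on raw counts, the shSCR libraries differed from each other most, at 124 for each degree of freedom, against 24.9 to 44. This measure grows with read depth, and the shSCR libraries held 38542409 and 51819308 reads. The groups, unlike in depth, are thus not on the same scale. All 10 mesenchymal markers were detected and summed to 16895 to 37394 CPM, the lowest in shSCR 1. Markers of T cells summed to at most 4.43 CPM, of epithelium to at most 5.83 CPM and of neutrophils to at most 34.1 CPM, with Ly6g at 0 throughout. Macrophage markers summed to 98.1 to 423 CPM. Plasma cells are of concern for these genes, because they carry a very large ER. Their marker sum of 91.6 to 302 CPM was mostly Prdm1, with Tnfrsf17 at 0 in 7 of 8 libraries and Mzb1 at 0.669 CPM at most. Immunoglobulin genes were higher in some libraries, with Ighm at 49.3 and Igkc at 23.8 CPM in sgSCR 2. In shMif 1 these were at 25.6 and 13.5 CPM.

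On a per-length scale (TPM, which corrects for transcript length), the most abundant members were folding enzymes and chaperones, and the sensors were among the scarcer ones. P4hb, the protein disulfide isomerase, averaged 1197 TPM over the 8 libraries. The lectin chaperone Calr averaged 1029 TPM, the Hsp70 chaperone Hspa5 (BiP) 886 TPM and the Hsp90 chaperone Hsp90b1 (GRP94) 624 TPM. Ern1 was the lowest member at 8.24 TPM, and Atf6, Eif2ak3 and Xbp1 averaged 16.8, 19.9 and 46.4 TPM. Some chaperones were as scarce, such as Sdf2l1 at 12.2 TPM and Dnajc3 at 15.8 TPM. Together the 32 members made up 0.571 and 0.525% of all TPM in sgSCR 1 and 2. Their share was 0.647 and 0.588% in sgMif, 0.782 and 0.659% in shSCR, and 0.626 and 0.624% in shMif. The sgSCR libraries thus held the lowest shares and shSCR 1 the highest. Between the highest and the lowest library the members spanned 1.19-fold (P4hb) to 2.68-fold (Sec61b) in CPM. The heatmap of members by library shows both features.

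**Figure D1:**
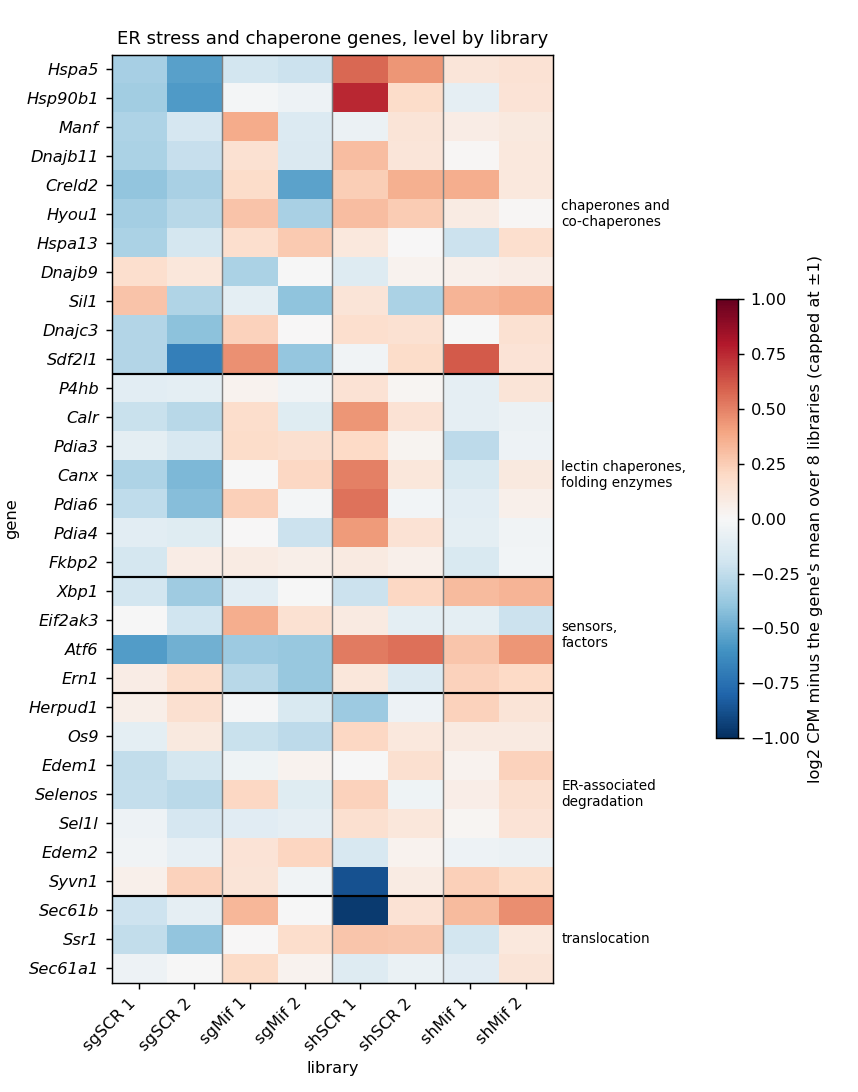
Level of each of the 32 members in each of the 8 libraries, as its log2 CPM minus the gene's mean over the libraries (colour, capped at 1 in either direction), with members grouped by role. The chaperones and folding enzymes are mostly low in sgSCR and high in shSCR 1, which held the highest level of 15 members, whereas Sec61b and Syvn1 are lowest in shSCR 1.

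The difference between the control groups came first in size. Atf6, Hspa5 and Hsp90b1 were higher in shSCR than in sgSCR, each close to 2-fold. These 3 of 32 members (9.38%) passed the test as higher, against 2.23% of all genes tested. The test was edgeR's quasi-likelihood test, Benjamini-Hochberg adjusted over all genes. No member passed it as lower. Of all genes, 1.79% fell and 4.02% passed in either direction. At an unadjusted p under 0.05 the counts were 12 members (37.5%) and 22.9% of all genes. The median log2 difference was 0.28 over the members and -0.04 over all genes, and 24 members were positive (75%, against 47.5% of all genes). Both shSCR libraries lay above both sgSCR libraries for 21 members (65.6%, against 28.4% of all genes) and below them for 3 (9.38%, against 26.3%).

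Hspa5, the chaperone that also keeps the sensors inactive, was at 932 and 804 CPM in sgSCR and at 1742 and 1589 CPM in shSCR. The groups were well apart, with means of 868 ± 90.6 and 1665 ± 108 (SD, n = 2), a log2 difference of 0.94 ± 0.14 (SE) and an adjusted p of 0.0163. Atf6, the sensor that becomes a transcription factor, was at 62.5 and 66.2 CPM in sgSCR and at 132 and 135 CPM in shSCR. Its replicates were nearly equal, and the log2 difference of 1.06 ± 0.13 had an adjusted p of 0.00812. Hsp90b1 was at 743 and 639 CPM in sgSCR and at 1593 and 1075 CPM in shSCR. Here the shSCR libraries differed much from each other, and the log2 difference of 0.95 ± 0.20 had an adjusted p of 0.0431.

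These calls rested on few libraries. Without sgSCR 1, and likewise without sgSCR 2, none of the 3 passed (Atf6 at adjusted p = 0.0712 and 0.0668, Hspa5 at 0.0808 and 0.143), although in both of these fits the log2 differences of all 3 lay between 0.87 and 1.13. Without shSCR 2, 8 members passed, of which 6 rose (Atf6, Hspa5, Hsp90b1, Calr, Canx, Pdia6) and Sec61b and Syvn1 fell. Hsp90b1 passed in 1 of the 8 fits that left out a library. A further fit, the replicate block, had a separate term for replicate 2 in each system. It compares the control groups at the level of replicate 1 and not by their group means. In that fit 0 of the 3 passed (Atf6 at adjusted p = 0.0563, Hspa5 at 0.0657 and Hsp90b1 at 0.113).

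For Hsp90b1 the result also depended on how its transcripts were added up. Its 2825-base coding transcript held 89.9 to 97.7% of the gene's reads and was at 668 and 603 CPM in sgSCR, 880 and 846 in sgMif, 1556 and 995 in shSCR, and 844 and 967 in shMif. A retained-intron transcript of 268 bases took 241 reads in sgSCR 1, which came to 37.1% of the gene's TPM there and to 2.25 to 22.6% elsewhere. In TPM the gene was at 702 and 402 in sgSCR and at 766 and 667 in shSCR. With counts rescaled by length its difference between the control groups was 0.49 on the log2 scale (adjusted p = 0.293), and from protein-coding transcripts alone it was 0.95 (adjusted p = 0.0554). Hspa5 in TPM was at 726 and 584 in sgSCR and 1193 and 1179 in shSCR, and Atf6 at 11.4 and 12.5 against 21.6 and 22.7. Neither of these had overlapping groups on either scale, and limma on log2 TPM gave both an adjusted p of 0.0518.

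**Figure D2:**
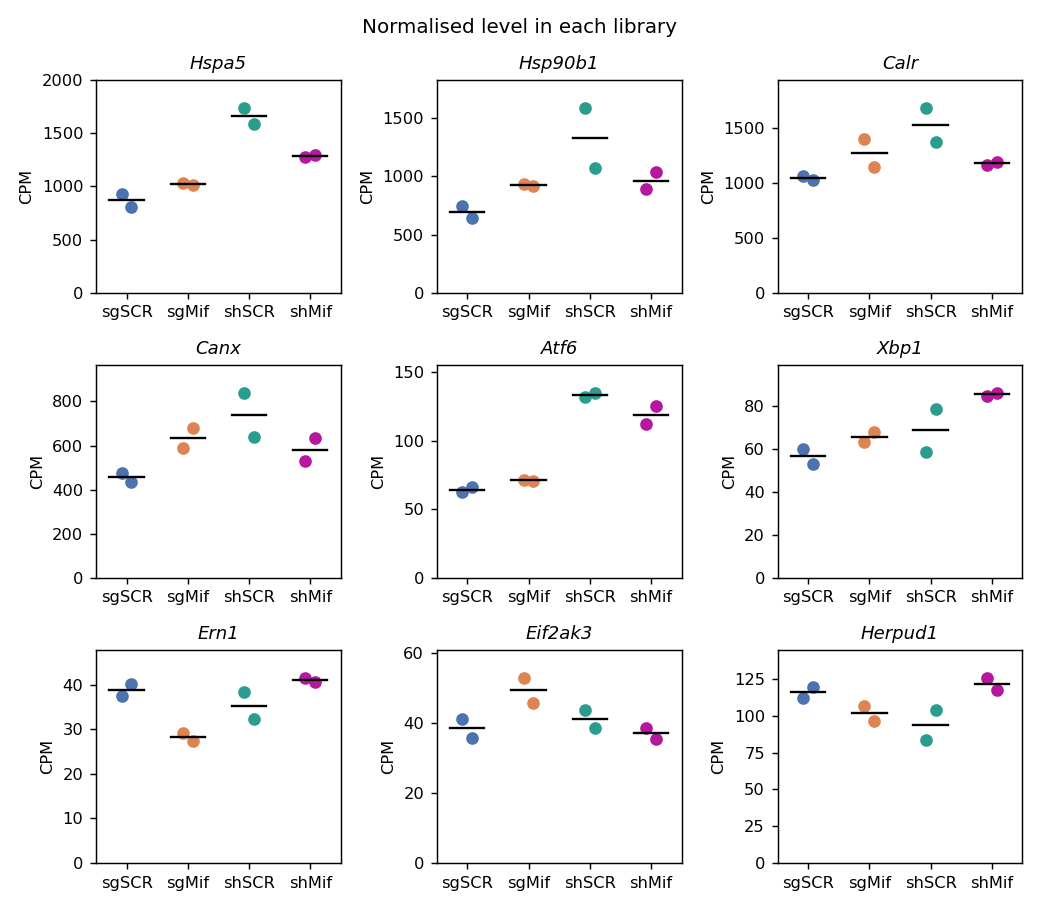
CPM in each library (points) and group mean (horizontal line) for 9 members, 2 libraries a group. Hspa5 and Atf6 stand highest in shSCR with no overlap with sgSCR, Hsp90b1 spreads from 1075 to 1593 CPM within shSCR, and Ern1 is lowest in sgMif.

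Among the other chaperones, Dnajc3, a co-chaperone that also restrains PERK, was at 49.4 and 45.7 CPM in sgSCR and 68.3 and 67.4 in shSCR (log2 difference 0.51 ± 0.14, adjusted p = 0.0848). Dnajb9, a co-chaperone known as an Xbp1 target, was at 50.4 and 48.7 CPM in sgSCR and 41.0 and 46.1 in shSCR (-0.19 ± 0.15, adjusted p = 0.503). The pair thus pointed in opposite directions without either passing the test. All 7 lectin chaperones and folding enzymes were positive in this comparison, by 0.11 to 0.70 with a median of 0.40, and 0 passed (4 at an unadjusted p under 0.05). Canx, the membrane-bound lectin chaperone, was at 477 and 433 CPM in sgSCR and 840 and 640 in shSCR (0.70 ± 0.18, adjusted p = 0.0672). Part of the shSCR 1 value was a 708-base transcript with no coding annotation, which held 12.9% of the gene's reads there and 1.96 to 5.18% in the other libraries. Calr, singled out after its values were seen, had 29 and 24.7% of its reads on retained-intron transcripts in shSCR against 12.8 and 11.6% in sgSCR. Over all 32 members that share was 6.37 and 5.78% in shSCR and 3.65 and 3.33% in sgSCR, whereas over all genes it was 5.41 and 3.9% against 4.84 and 4.42%. The pooled share of the members is weighted by reads and includes those of Calr, an abundant member. For Hspa5 the share overlapped (6.54 and 8.43% in shSCR against 6.98 and 6.13% in sgSCR), as for Hsp90b1 (0.49 and 1% against 1.65 and 0.881%). For the scarcer Xbp1 it was higher in both shSCR libraries (10.9 and 6.21% against 3.23 and 4.82%).

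The 8 members with an ER stress response element had a median log2 difference of 0.64 between the control groups, and 7 were positive. The 18 members with a window and no match had a median of 0.21, and 13 were positive. The 10 tested genes outside the set with a match had a median of 0.09, and 8 were positive. Between shMif and sgMif the members' medians were 0.01 with a match and 0.10 without. Among the members with a match, the 1 negative between the control groups was Syvn1, the ubiquitin ligase of ER-associated degradation. It carries its match closest to the gene start. Syvn1 was at 39.6 and 44.9 CPM in sgSCR but at 20.9 and 40.6 CPM in shSCR, so its low mean came from shSCR 1 alone. These are descriptions of lists read with the results known, with no test.

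Of the remaining chaperones, Hyou1, a large Hsp70-type chaperone, was at 144 and 151 CPM in sgSCR and 226 and 218 in shSCR (log2 difference 0.59 ± 0.19, adjusted p = 0.124). Creld2 (0.66), Dnajb11 (0.49) and Manf (0.28) were also positive and did not overlap, while Sil1, the exchange factor of Hspa5, overlapped (-0.10). Of the folding enzymes, Pdia6 reached 0.62 (adjusted p = 0.122), whereas P4hb, the most abundant, differed by 0.19 and the prolyl isomerase Fkbp2 by 0.11.

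Markers of other cells also differed between the control groups. The plasma cell sum was 183 and 287 CPM in sgSCR and 302 and 203 in shSCR, and the macrophage sum was 423 and 189 against 214 and 241, so both sums overlapped. Within these lists the immunoglobulin genes Igkc (7.97 and 23.8 CPM against 0.752 and 1.35) and Ighm (4.7 and 49.3 against 0.856 and 2.56) were lower in both shSCR libraries. So were the macrophage genes Mrc1 (107 and 34 CPM against 15.5 and 12.4) and Cd163 (103 and 24.9 against 0.596 and 0.0202). Others of the same lists were higher in both shSCR libraries. These were Lyz2 (38.2 and 30.3 against 83.7 and 85.5), Laptm5 (26.1 and 20.9 against 32 and 35.1), Ptprc (11.5 and 6.73 against 17.3 and 15) and Prdm1 (150 and 188 against 286 and 192). The single genes of these lists were chosen after their values were seen. The endothelial sum, mostly Pecam1, was 260 and 273 CPM in sgSCR and 206 and 38.8 in shSCR, and the epithelial sum was 5.83 and 5.04 against 3.53 and 2.36, both without overlap. Of the endothelial genes, Pecam1 and Emcn were lower in both shSCR libraries, and Cdh5, Kdr, Tie1 and Tek overlapped. The scarce Cldn5 was higher in both (0.201 and 0.299 against 0.337 and 2.26). The mesenchymal sum was 29295 and 30675 CPM in sgSCR and 16895 and 23268 in shSCR, lower in both shSCR libraries. Col1a1, a collagen gene in that list, was at 7106 and 6885 CPM against 1979 and 3587. Col1a2, Col3a1, Pdgfrb, Thy1 and Eng were also lower in both shSCR libraries. Pdgfra, Prrx1 and Twist1 overlapped, and Vim was higher in both shSCR libraries (5938 and 6549 against 6597 and 8596). The part of these cells and of Col1a1 in the members' levels was not tested.

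Degradation and translocation members differed less between the control groups. The 7 degradation genes had a median log2 difference of 0.16, and 0 passed the test or an unadjusted p under 0.05. Edem1, a lectin that directs glycoproteins to degradation, was positive (0.29), as were Selenos (0.35), Sel1l (0.24) and Os9 (0.16), all without overlap, while Edem2 was at -0.00. Herpud1, a membrane scaffold of the degradation complex, was at 112 and 120 CPM in sgSCR and 83.7 and 104 in shSCR, with no overlap (-0.30 ± 0.15, adjusted p = 0.266). Ssr1, a subunit of the translocon-associated protein complex, was at 187 and 169 CPM in sgSCR and 269 and 267 in shSCR (0.59 ± 0.15, adjusted p = 0.0653). Sec61b, a subunit of the channel itself, was at 65.4 and 70.7 CPM in sgSCR and at 38.9 and 83.3 in shSCR. In shSCR 1 the 424-base coding transcript of Sec61b was listed at 0 reads, whereas it held 34 to 51.5% of the gene's reads in the other 7 libraries. The 564-base transcript alone was at 38.4 CPM in shSCR 1, within the range of 31.7 to 61.5 CPM of the other libraries. Sec61a1, the channel's main subunit, differed by -0.07.

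In the knockout comparison no member passed the test. The 32 members included 0 called genes in either direction, against 0.368% of all genes that rose, 0.619% that fell and 0.987% in either direction, and DESeq2 also called 0. At an unadjusted p under 0.05 there were 6 members (18.8%) and 16.6% of all genes. The median log2 difference of sgMif from sgSCR was 0.23 over the members and -0.01 over all genes, with 25 members positive (78.1%, against 49.4% of all genes). Both sgMif libraries lay above both sgSCR libraries for 20 members (62.5%, against 27.1% of all genes) and below them for 4 (12.5%, against 24.2%). Without sgMif 1 the members' median was 0.13.

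The 3 members with the smallest p-values were a pair of chaperone genes and a sensor. Dnajc3 had 49.4 and 45.7 CPM in the sgSCR libraries and 71.3 and 60.7 in the sgMif libraries (log2 difference 0.47 ± 0.14, adjusted p = 0.158). Hspa13, an Hsp70-like protein of the ER, had 70.0 and 77.4 CPM in the sgSCR libraries and 98.3 and 105 with the Mif guide (0.47 ± 0.16, adjusted p = 0.203). Ern1, the IRE1 sensor, went the other way, from 37.4 and 40.2 CPM in sgSCR to 29.3 and 27.3 in sgMif (-0.46 ± 0.15, adjusted p = 0.18). None of the 3 had overlapping groups.

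The other sensors were higher in sgMif than in sgSCR without passing. Eif2ak3, the PERK sensor, had 41.1 and 35.9 CPM in the sgSCR libraries and 53.0 and 45.8 with the Mif guide (0.36 ± 0.15, adjusted p = 0.297). Xbp1 was at 60.0 and 53.3 CPM against 63.4 and 68.2 (0.22 ± 0.17, adjusted p = 0.552), and Atf6 at 62.5 and 66.2 against 71.5 and 70.8 (adjusted p = 0.596). Of the 4 sensors, Ern1 alone was negative, and Ern1 and Eif2ak3 had unadjusted p-values of 0.0146 and 0.0481. The leading chaperones were also higher in both sgMif libraries. Hspa5 was at 1031 and 1009 CPM there (0.23 ± 0.14, adjusted p = 0.432) and Hsp90b1 at 931 and 914 CPM (0.42 ± 0.20, adjusted p = 0.347). Dnajb9 at 36.1 and 44.9 CPM and Herpud1 at 107 and 96.8 CPM were below both sgSCR libraries (adjusted p = 0.39 and 0.556). The members not named here ranged from -0.27 (Sil1) to 0.57 (Sdf2l1), and both of these overlapped.

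The plasma cell marker sum was 183 and 287 CPM in the sgSCR libraries and 107 and 91.6 in the sgMif libraries, and the macrophage sum was 423 and 189 against 124 and 98.1. The endothelial sum was 260 and 273 CPM against 160 and 34.6. All 3 sums were lower in both sgMif libraries, but not all of their genes were. The endothelial sum was mostly Pecam1 (246 and 261 CPM against 111 and 25), while Cdh5 overlapped (7.14 and 7.48 against 26 and 5.59). Kdr, Tie1, Tek and Emcn also overlapped, and the scarce Cldn5 was higher in both sgMif libraries (0.201 and 0.299 against 1.73 and 0.564). Prdm1 made up most of the plasma cell sum (150 and 188 against 92.6 and 87.2). The macrophage gene Lyz2 overlapped (38.2 and 30.3 against 64.5 and 30.6). The mesenchymal sum was 29295 and 30675 CPM in the sgSCR libraries and 34198 and 34985 in the sgMif libraries. Of its genes, Col1a1, Col1a2, Pdgfrb and Vim were higher in both sgMif libraries. Col3a1, Thy1, Twist1 and Eng overlapped. Pdgfra (457 and 522 against 387 and 450) and Prrx1 (384 and 510 against 306 and 312) were lower in both. The part of these cell types in the members' levels was not tested.

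In the hairpin comparison the 7 lectin chaperones and folding enzymes had the opposite sign, while 4 of the 11 chaperones were positive. The median log2 difference of shMif from shSCR was -0.07 over the members and 0.03 over all genes, and 13 members were positive (40.6%, against 53% of all genes) and 19 negative. No member passed the test, against 0.0184% of all genes, and DESeq2 called 0. At an unadjusted p under 0.05 there were 5 members (15.6%) and 9.26% of all genes. The libraries labelled shMif lay below both shSCR libraries for 14 members (43.8%, against 22.3% of all genes) and above them for 7 (21.9%, against 19.4%).

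All 7 lectin chaperones and folding enzymes were negative here, with a median of -0.31, where in the knockout comparison all 7 were positive with a median of 0.29. The control here is shSCR, and all 7 had their highest level in shSCR 1 and were positive in shSCR against sgSCR. Some differences were near 0, such as Pdia4 for the guide (0.01 ± 0.15) and P4hb for the hairpin (-0.06 ± 0.14). Pdia4 and Fkbp2 overlapped for the guide, and Pdia6 and P4hb for the hairpin. Hspa5 was at 1742 and 1589 CPM in shSCR and 1273 and 1294 in shMif (log2 difference -0.38 ± 0.14, adjusted p = 0.489). Pdia4, a disulfide isomerase, was at 227 and 187 CPM in shSCR and 158 and 165 in shMif (-0.36 ± 0.15, adjusted p = 0.52). Herpud1 was at 83.7 and 104 CPM in shSCR and 126 and 118 in shMif (0.37 ± 0.15, adjusted p = 0.52). These 3 had the smallest p-values of the comparison and no overlap between groups. Hsp90b1, at 889 and 1040 CPM in shMif, was below both shSCR libraries (-0.47 ± 0.20, adjusted p = 0.535). Without shSCR 2, Hsp90b1, Sec61b and Syvn1 passed the test.

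**Figure D3:**
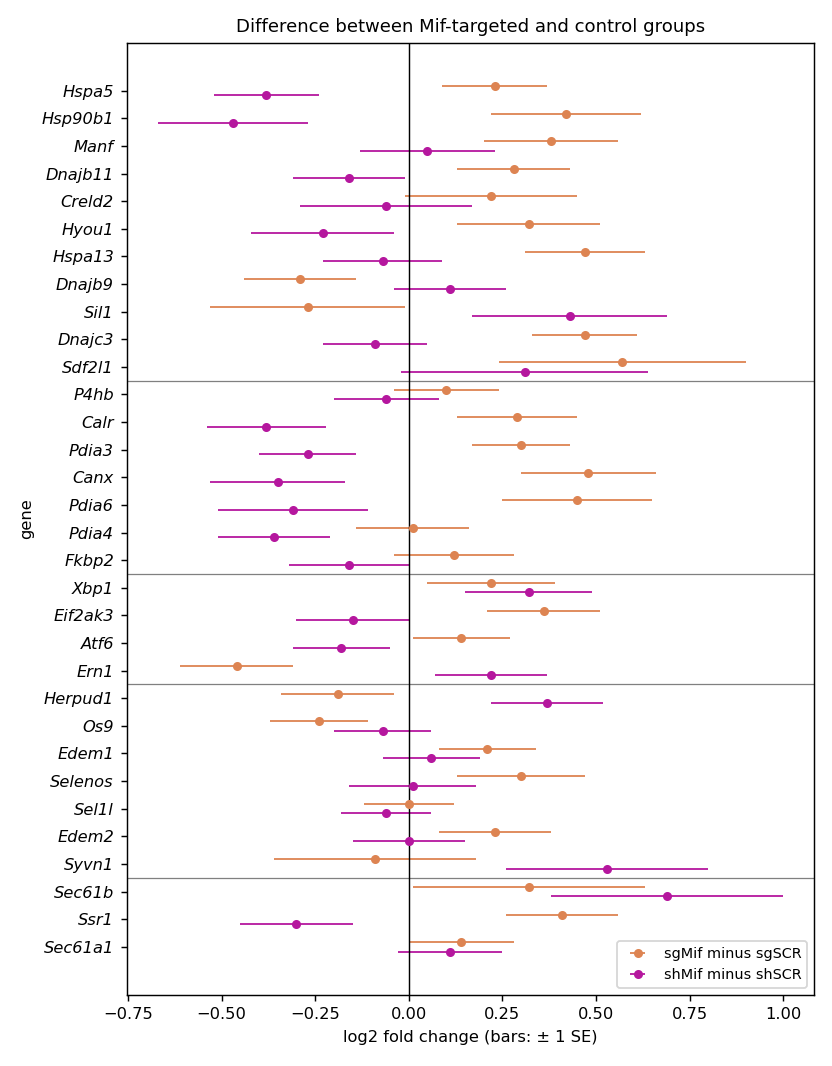
Log2 difference of sgMif from sgSCR and of shMif from shSCR for each of the 32 members, with SE bars, members grouped by role. No member passed the test in either comparison, and the 7 lectin chaperones and folding enzymes are all right of 0 for the guide and all left of it for the hairpin.

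The difference between these 2 effects was tested in the same model. No member passed, against 0.092% of all genes, while DESeq2 called 1, Canx (adjusted p = 0.0484). At an unadjusted p under 0.05 there were 12 members (37.5%) and 15.8% of all genes, with a median of 0.29 over the members and -0.04 over all genes, and 24 members were positive (75%, against 47.6%). Ssr1 had the smallest p. It was at 222 and 251 CPM in sgMif and 195 and 239 in shMif, and its effects of 0.41 and -0.30 differed by 0.71 ± 0.21 (adjusted p = 0.189). Canx, at 589 and 681 CPM in sgMif and 532 and 632 in shMif, had effects of 0.48 and -0.35 that differed by 0.83 ± 0.25 (adjusted p = 0.199). For Ern1, at 38.4 and 32.3 CPM in shSCR and 41.6 and 40.7 in shMif, the effects of -0.46 and 0.22 differed by -0.68 ± 0.21 (adjusted p = 0.204). For Ssr1 and Canx the control groups were farther apart (0.59 and 0.70) than the Mif-targeted groups (-0.13 for both), whereas for Ern1 the control groups differed by -0.14 and the Mif-targeted groups by 0.54.

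Over both systems together, no member passed, and 0% of all genes did. At an unadjusted p under 0.05 there was 1 member (3.12%) against 8.01% of all genes, and DESeq2 called 0 members and 279 genes. The log2 difference was above 0 for 22 members (68.8%, against 49.9% of all genes), with a median of 0.07. The member was Sec61b, with 94.8 and 75.4 CPM in sgMif and 93.8 and 104 in shMif against the control values given above (0.51 ± 0.22, adjusted p = 0.617). The transcript listed at 0 reads in shSCR 1 enters this value. Xbp1 followed, at 58.7 and 78.8 CPM in shSCR and 84.9 and 86.4 in shMif (0.27 ± 0.12, adjusted p = 0.629). Sdf2l1, a member of the Hspa5 chaperone complex, came next, at 8.25 and 6.28 CPM with the control guide, 13.9 and 7.73 with the Mif guide, 9.88 and 11.5 in shSCR, and 15.5 and 11.1 in shMif (0.44 ± 0.23, adjusted p = 0.717). Sdf2l1 had overlapping libraries in both systems.

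Comparison of shMif with sgMif, added after the values were seen, showed which control-group differences were also present between the Mif-targeted groups, which share no library with them but do share the fit's estimate of spread. Atf6 was at 71.5 and 70.8 CPM in sgMif and 112 and 125 in shMif, a log2 difference of 0.74 ± 0.13 (adjusted p = 0.0336). It was the 1 member of 32 that passed (3.12%, against 1.18% of all genes that rose and 2.01% in either direction). Atf6 kept this call in 2 of the 8 fits that left out a library, those without shSCR 1 or shSCR 2, and was at an adjusted p of 0.0647 without sgSCR 1, 0.0661 without sgSCR 2, 0.143 without sgMif 1, 0.168 without sgMif 2, 0.18 without shMif 1 and 0.17 without shMif 2. Its log2 difference was 0.64 to 0.82 in all 8. With the replicate block, which compares hairpin and guide groups at the level of replicate 1, the adjusted p of Atf6 was 0.153. Hspa5 was at 1031 and 1009 CPM against 1273 and 1294 (0.33 ± 0.14, adjusted p = 0.287), and Hsp90b1 overlapped (0.06 ± 0.20, adjusted p = 0.93). Ern1 was higher in both shMif libraries (0.54 ± 0.15, adjusted p = 0.118) and Eif2ak3, at 38.6 and 35.6 CPM, lower (-0.41 ± 0.15, adjusted p = 0.242). Over all members the median was 0.06, against 0.00 over all genes, 20 members were positive (62.5%, against 50.3%), and 10 members did not overlap upwards (31.2%, against 23% of all genes). The members had the same sign in both hairpin-against-guide comparisons in 16 of 32 cases, 14 positive and 2 negative (50%, against 53.2% of all genes).

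**Figure D4:**
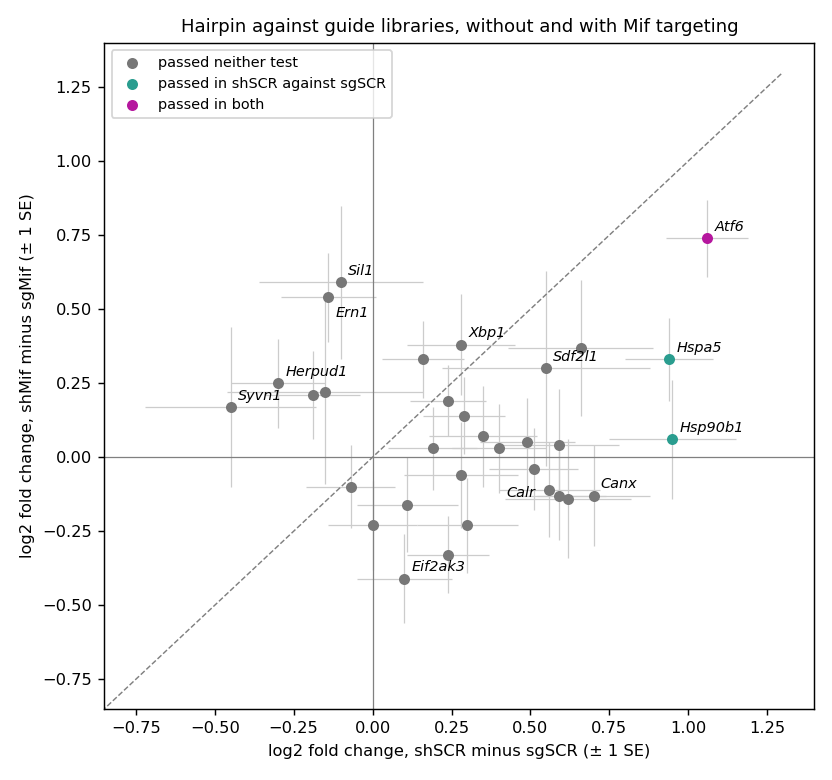
Log2 difference of shSCR from sgSCR (horizontal) against that of shMif from sgMif (vertical) for the 32 members, with bars of 1 SE, coloured by which test they passed, and a dashed line of equal differences. Atf6 lies farthest to the upper right at 1.06 and 0.74, whereas Hspa5 (0.94 and 0.33) and Hsp90b1 (0.95 and 0.06) lie far to the right and closer to 0 on the vertical axis.

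Cutting of the Xbp1 messenger by IRE1 could not be measured from these tables. The sequence is shown because it is the site that IRE1 cuts, here in its uncut form. The stretch removed is 26 bases at positions 815 to 840 of the 2129-base Xbp1 coding transcript, printed in capitals with 15 bases on either side.
Xbp1: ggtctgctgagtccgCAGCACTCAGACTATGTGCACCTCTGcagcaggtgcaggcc

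All 3 protein-coding Xbp1 transcripts in the table hold these 26 bases and none of the 4 listed transcripts has them removed. Reads of both forms were thus assigned to the same entries, and the Xbp1 levels above are of both together.

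Further genes of the pathway were taken from a list of 81 genes, of which 80 were tested. Against sgSCR, 0 rose and 3 fell in sgMif, where 0.368% of all genes rose and 0.619% fell. Trib3, a pseudokinase induced by ATF4, was at 23.3 and 29.3 CPM in the sgSCR libraries and 3.33 and 6.18 with the Mif guide (log2 difference -2.45 ± 0.37, adjusted p = 0.0333). Sesn2, a stress-induced sestrin, was at 41.9 and 58.2 CPM against 18.8 and 18.1 (-1.44 ± 0.20, adjusted p = 0.033). Ero1l, the oxidase that recharges disulfide isomerases and is also induced by hypoxia, was at 762 and 615 CPM against 188 and 304 (-1.48 ± 0.24, adjusted p = 0.0394). All 12 genes of the PERK-ATF4 arm were negative, with a median of -0.67, as were 8242 of the 16309 genes tested, whereas 60 of the 80 genes were positive with a median of 0.19. Atf4 itself was at 382 and 465 CPM in the sgSCR libraries and 347 and 376 with the Mif guide (adjusted p = 0.445), and Ddit3 (CHOP) at 11.5 and 12.6 against 8.95 and 7.35 (adjusted p = 0.401). The chaperone members and the ATF4 arm thus had medians of opposite sign in this comparison.

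In shSCR against sgSCR, 4 genes of that list rose and 3 fell, where 2.23% of all genes rose and 1.79% fell. Those that rose were Tmx1 (log2 difference 0.80) and Ero1lb (1.05), both of thiol oxidation, and Vcp (0.63) and Ube2g2 (0.60), both of degradation. Those that fell were Trib3 (-3.48), Asns (-1.04) and Sesn2 (-1.09). Trib3 was at 1.84 and 2.85 CPM in shSCR and at 7.0 and 5.35 in shMif, so sgSCR stood apart from the other 3 groups for this gene. In shMif against shSCR, in the difference of the 2 effects, in shMif against sgMif and over both systems, 0 of the 80 genes passed. The comparisons of sgMif and of shSCR share the sgSCR libraries as their control, so a gene that is high or low in sgSCR moves the same way in both.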

How the data were processed

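Bulk RNA-seq of 8 libraries was read from the authors' deposited transcript tables, which hold Salmon's estimated count (NumReads) and TPM for 116546 transcripts, per the file headers. The submitters' processing notes name Trimmomatic, Salmon and mm10, with versions, options, library kit and strandedness not given in the sources used here. Transcripts were joined to genes through GENCODE M21 (115977 matched, with 569 unmatched holding 0.101 to 0.205% of reads). Counts were added up per gene and rounded. Genes were kept with edgeR 4.0.16's filterByExpr (minimum count 10, minimum total 15), scaled by TMM and tested with the quasi-likelihood test in R 4.3.3. One fit of 4 group means had 4 residual degrees of freedom, and a fit with system and Mif label as additive terms had 5. P-values were Benjamini-Hochberg adjusted over all 16309 genes at 0.05. Values after ± are SEs for log2 differences and SDs for means. Overlap means that 1 library of a group lay within or beyond the other group's values.

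The alternatives were edgeR's RLE factors, DESeq2 1.42.0, no filter, counts scaled by length, protein-coding transcripts, limma 3.58.1 on log2(TPM + 0.5) with a filter at 1 TPM, a replicate block, each system alone, a term for library class (olfactory receptor reads above or below 1000 CPM) and each library left out. Both sgSCR libraries were above this class limit (2544 and 1418 CPM). Every other group had replicate 1 above it and replicate 2 below. Library class is thus partly confounded with sgSCR and with replicate number. On simulated data for sgMif against sgSCR over 16309 genes, 27% of 2-fold and 89% of 4-fold changes were recovered. Per-library values were given for members that passed, for the 3 smallest p-values of each comparison and for Hspa5, Hsp90b1, Xbp1, Ern1, Atf6, Eif2ak3, Dnajb9 and Herpud1. Members, gene lists and tests were chosen with earlier results of these data known. Sequences are from RefSeq (GRCm38.p6) and the GENCODE M21 transcripts.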

Additional observations from a re-analysis of the deposited data

How the results depend on the processing

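For sgMif against sgSCR and for both systems together, 0 members passed under every alternative run. For shSCR against sgSCR, 8 passed with DESeq2, 11 with no filter on low counts and 0 with limma on log2 TPM (smallest adjusted p = 0.0518), against 3. Over all genes those settings called 1948, 2425 and 187, against 655. Leaving out a library gave 0 to 8. For shMif against shSCR, 1 member (Sec61b) passed with no filter, and 0 to 3 when a library was left out. For the difference of the 2 effects, 1 passed with DESeq2, 4 with no filter (Canx, Hsp90b1, Pdia6, Ssr1), and 0 to 2 when a library was left out, both of these (Hsp90b1, Syvn1) without shSCR 2. For shMif against sgMif, 2 passed with DESeq2 (Atf6, Ern1), 0 with length-scaled counts, 0 with limma, and 0 to 1 when a library was left out. The cause of these changes was not tested. Each library left out in turn gave member medians of 0.13 to 0.29 for sgMif against sgSCR, -0.12 to -0.01 for shMif against shSCR, 0.24 to 0.51 for the difference, 0.29 to 0.37 for shSCR against sgSCR, -0.05 to 0.14 for shMif against sgMif and -0.02 to 0.13 over both systems. The 4 single-member results that passed lost the call in 28 of 64 alternatives, and in 17 of the 32 that left out a library. Single-member results that had not passed gained it in 4 cases, and no single-member result reversed direction. The member medians for shMif against sgMif and over both systems did change sign within the ranges given.

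Replicate numbers are shared between groups, but the labels do not say that they mark a pair. Deviations of same-numbered libraries correlated at 0.154 (sgSCR and shSCR) to 0.371 (sgMif and shMif) over the 6 pairs of groups, all positive, with 2 numbers each. The replicate block had a separate replicate term in each system and left 2 residual degrees of freedom. Hairpin and guide groups are compared in it at the level of replicate 1, which is not the comparison of group means. In it 0 members passed for shSCR against sgSCR (Atf6 at adjusted p = 0.0563, Hspa5 at 0.0657, Hsp90b1 at 0.113). For shMif against sgMif 0 passed (Atf6 at 0.153). All genes called for shSCR against sgSCR then numbered 210. The share of spliced Xbp1, by TPM or by reads, was not run, since no listed transcript is the spliced form. With 2 libraries a group, a 2-fold change was often missed on simulated data, so members that did not pass may still differ.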
